A study of Mus musculus with 4 samples.

Results

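Both arrays of induced regulatory T cells (iTreg) raised in culture were set against both arrays of CD4 T cells taken directly from mice, to find the genes that kept the cultured and the ex vivo cells apart. All 4 arrays of the series enter this comparison, 2 in each pair. Vitamin C iTreg and conventional iTreg form the cultured pair, and natural regulatory T cells (natural Treg) and naive CD4 T cells form the ex vivo pair. A gene was counted when the lower value of its high pair exceeded the higher value of its low pair by 2-fold or more after normalization, and when 2 or more of the 4 arrays detected its probe, taking a detection p-value below 0.01 as detection. Of 16590 genes with a named probe, 7780 passed that detection rule, and 1300 of those (16.7%) were counted.

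The RNA came from male Foxp3-GFP transgenic mice (B6.Cg-Foxp3tm2Tch/J), in which green fluorescent protein (GFP) reports the expression of Foxp3, the transcription factor that defines regulatory T cells. For vitamin C iTreg, sorted naive CD4 T cells (GFP-, CD44 low) were stimulated with anti-CD3 and anti-CD28 at 1 µg/ml of each antibody together with IL-2 at 15 ng/ml, TGF-beta at 10 ng/ml and vitamin C at 10 µg/ml, and cells positive for GFP and CD25 were sorted again at the end. Conventional iTreg were made in the same way without vitamin C. The culture lasted 5 to 6 days by the sample labels and 5 days by the series text. Natural Treg were sorted ex vivo as CD4+CD8-GFP+ cells, and naive CD4 cells ex vivo as CD4+CD8-GFP-CD44low cells, both from lymph node and spleen. The ages of the mice, and whether cells of several mice were pooled, are not given in the sources used here. Each group has 1 array, and the arrays of a pair are a different treatment or a different cell type, so no test across replicates exists and the values describe these arrays. Culture, stimulation, the cytokines and the second sort for CD25 all separate the pairs together and cannot be told apart.

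A naive T cell is small, divides rarely and lives on signals from the IL-7 receptor and self ligands. When its antigen receptor and CD28 are engaged, it enlarges, copies its DNA and divides, and to do so it takes up glucose and amino acids and makes its own sterols and fatty acids. TGF-beta added with IL-2 during such a stimulation turns on Foxp3 in a share of the cells, which are then called induced regulatory T cells. Natural Treg acquire Foxp3 in the thymus and keep it as they circulate.

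The number of genes detected was 7547 in vitamin C iTreg and 7603 in conventional iTreg, against 7429 in natural Treg and 7027 in naive CD4. All 6 T cell defining markers with a named probe (Cd2, Cd3d, Cd3e, Cd3g, Cd4 and Thy1) were detected on every array, and none was counted. Of the B cell markers, 8 of 13 were detected on no array, among them Cd79a, Ms4a1 and Pax5, while 2 were detected on each cultured array and 5 on each ex vivo array. The sum of the normalized linear signal over those 13 probes was 4145 and 4905 in the cultured pair, against 3249 and 1842 in the ex vivo pair. Such a sum rests mostly on the brightest probes. Of the 5 tested B cell markers, 3 were ex vivo higher, 1 was cultured higher and 1 was cultured higher by less than 2-fold. The ex vivo-higher count depended on the processing: it was 0 with the authors' log2 values and 1 with an offset of 50, alternatives described below. Cd79b, a B cell receptor signalling chain gene, was at least 2.64-fold lower in the cultured pair, and the class II genes H2-Eb1 and H2-Aa at least 2.30-fold and at least 2.24-fold, while the class II gene H2-Ab1 was 3.49-fold higher there. Of 12 myeloid markers, 8 were detected on no array, including Lyz2, Itgam and S100a8, and the sums were 6928 and 5790 in the cultured pair, against 3753 and 2779 in the ex vivo pair. There the chemokine receptor gene Cx3cr1 was at least 4.12-fold higher in the cultured pair and the lysozyme gene Lyz1 at least 2.99-fold lower. With the authors' log2 values 0 myeloid markers were ex vivo higher. Hba-a1, the haemoglobin alpha chain gene, was the only erythroid or platelet marker of 6 detected on any array, and it was at least 3.80-fold lower in the cultured pair, with sums of 175 and 175 in the cultured pair against 420 and 696 in the ex vivo pair. No CD8 T or NK cell marker (3 of 8 in the tested set) and no stromal or endothelial marker (1 of 7) was counted. The CD8 T and NK cell sums were 4681 and 9677 in vitamin C and conventional iTreg, against 4346 and 6188 in natural Treg and naive CD4, and the stromal and endothelial sums 1414 and 1608 in the cultured pair, against 2429 and 2975 in the ex vivo pair. Nkg7, a granule membrane gene named after its values were seen, had 11.23 and 12.93 in the cultured pair, against 10.46 in natural Treg and 6.24 in naive CD4, where it was not detected. Of the 3 tested, 1 was cultured higher by less than 2-fold, 1 was ex vivo higher by less than 2-fold and 1 had overlapping pairs. The ex vivo-higher marker had a difference of pair means of -1.07. In 2 of the 3, both iTreg arrays were at least 2-fold below naive CD4, and in 1 they were at least 2-fold above natural Treg. The part of these markers in the other results was not tested.

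The cultured pair was higher in 656 genes (8.43% of those tested) and the ex vivo pair in 644 (8.28%). For each gene the log2 gap is the distance between the nearest values of the pairs, positive where the cultured pair is higher, negative where the ex vivo pair is higher and 0 where the pairs overlap. The pairs overlapped in 1796 genes. They were apart by less than 2-fold in 1996 genes with the cultured pair higher and in 2688 with the ex vivo pair higher. The gaps on the cultured side were larger, with a median of 1.75 (3.35-fold) among the 656 genes, against 1.40 (2.64-fold) among the 644. A gap of 8-fold or more was found in 82 genes with the cultured pair higher and in 40 with the ex vivo pair higher. A gap of 32-fold or more was found in 16 genes with the cultured pair higher and in 2 with the ex vivo pair higher. The arrays share one distribution of values after quantile normalization, and the split of the counts changed with the scaling. With median centring in its place, 781 genes had the cultured pair higher and 484 the ex vivo pair, so that the cultured share of the counted genes was 61.7% in place of 50.5%, and the median difference of pair means over all tested genes was 0.04 in place of -0.06.

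**Figure D1:**
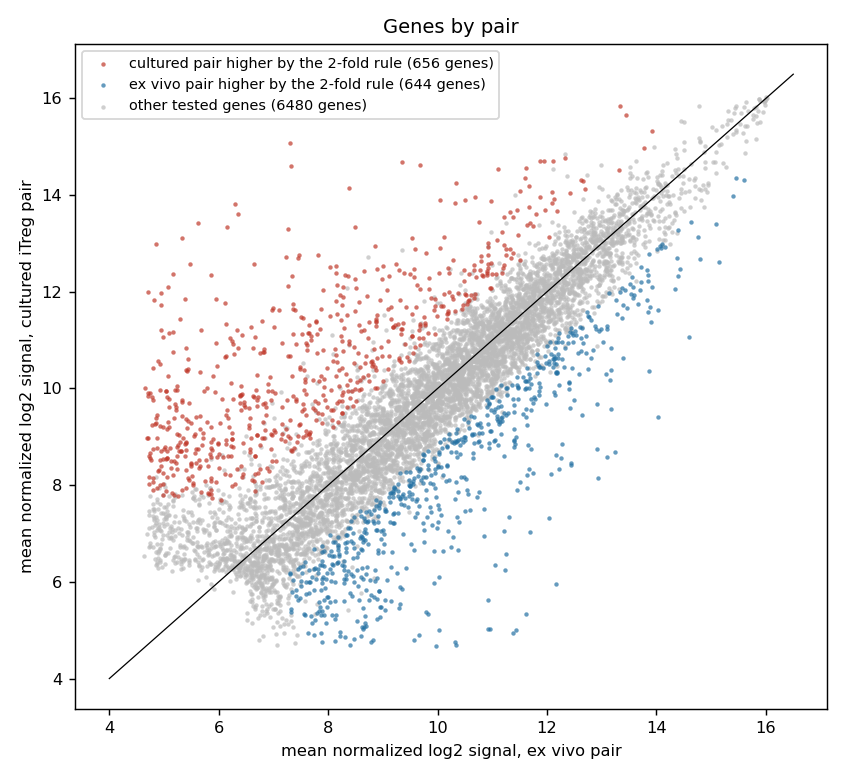
Each point is a tested gene, with the mean normalized log2 signal of the ex vivo pair on the x axis and that of the cultured iTreg pair on the y axis; the line marks equal signal. The 656 genes with the cultured pair higher reach further from the line at the low end of the x axis than the 644 genes with the ex vivo pair higher do at the low end of the y axis.

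Many counted genes were dim or silent in the low pair. Among the cultured-higher genes, 353 were detected on all 4 arrays, and 167 were detected on neither ex vivo array. Among the ex vivo-higher genes, 498 were detected on all 4 arrays and 103 on neither cultured array. Every counted gene was detected on both arrays of its high pair, as the 2-fold rule sets in advance through the detection floor described next. Where the array that set the edge of the low pair did not detect a gene, its value was raised to that array's detection floor, the weakest signal it detected, and the gap is then a lower bound, written "at least". This holds for 196 cultured-higher and 106 ex vivo-higher genes. At the threshold itself, Epb41l2 had a gap of 1.0026 and was counted while Gtf2f2, a general transcription factor subunit gene, had 0.9987 and was not. On the other side Tor4a had -1.0013 and was counted, and Rell2 had -0.9995 and was not.

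The counted genes were not spread evenly over the functions examined. Of 29 gene lists, mitosis, sterol and fatty acid synthesis and DNA replication had the highest shares of cultured-higher members, and interferon response, GIMAP GTPases, and naive and quiescence genes had the highest shares of ex vivo-higher members. The cytosolic and mitochondrial ribosomal proteins, the oxidative phosphorylation subunits and the constitutive proteasome subunits had no counted member among 226 tested. The lists hold 117 of the 656 cultured-higher and 58 of the 644 ex vivo-higher genes, so most counted genes lie outside them.

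**Figure D2:**
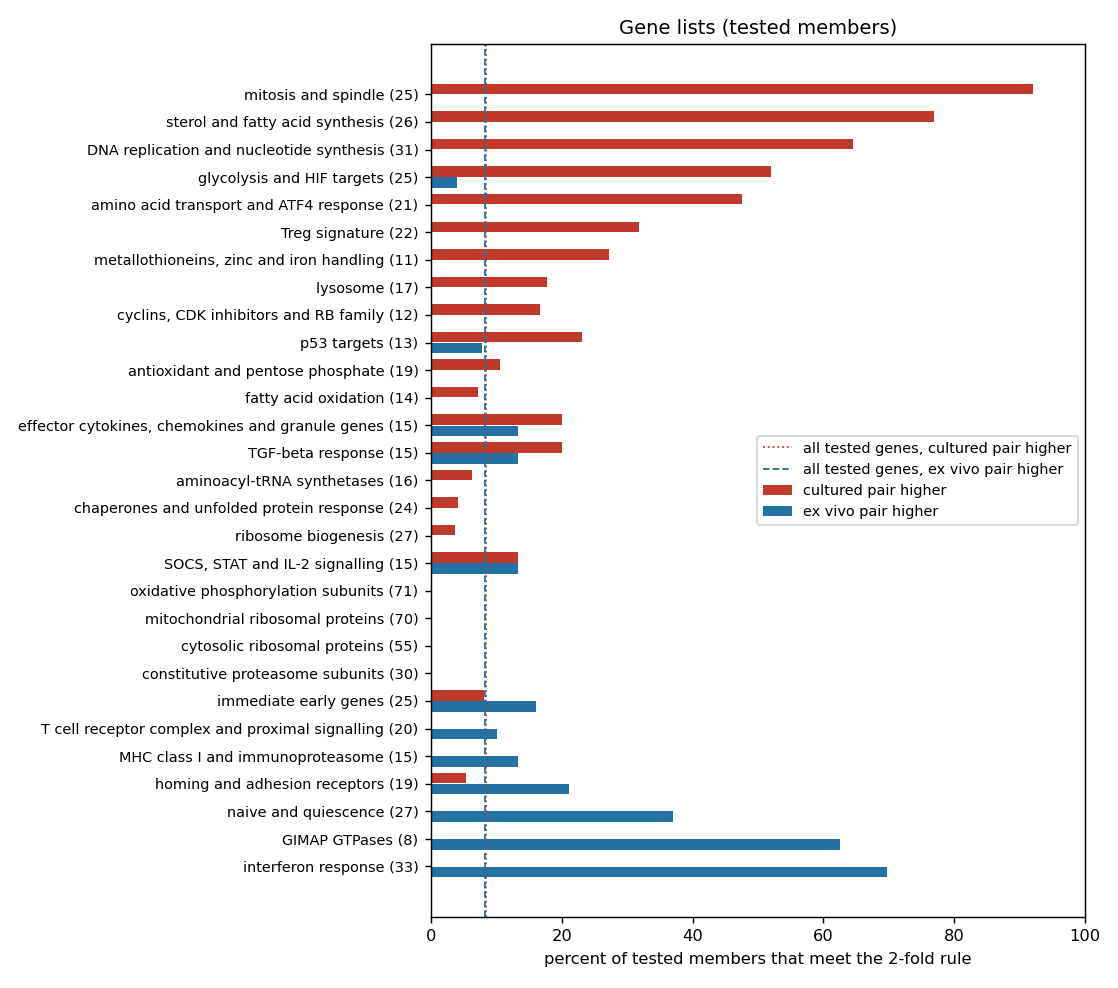
Bars give, for each gene list, the percent of its tested members (their number in brackets) in which the cultured pair (red) or the ex vivo pair (blue) was higher by the 2-fold rule. The vertical lines mark the shares over all tested genes, 8.43% and 8.28%; mitosis and spindle genes stand highest in red and interferon response genes in blue, and 4 lists of large complexes have no bar.

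Cell division genes were higher in the cultured pair. Of 25 tested mitosis and spindle genes, 23 were cultured higher and 0 ex vivo higher, and the median difference of pair means was 3.34, against -0.06 over all tested genes. Cdk1, the kinase that drives entry into mitosis, had log2 signals of 11.45 in vitamin C iTreg and 11.36 in conventional iTreg, against 7.52 in natural Treg and 6.06 in naive CD4. The gap was 3.84, or 14.3-fold. Top2a, the topoisomerase that untangles chromosomes, had 13.03 and 12.87 in the cultured pair, against 9.41 and 8.29 in the ex vivo pair (gap 3.45). Natural Treg lay nearer to the cultured pair than naive CD4 did in both genes, without reaching it. In bulk RNA a larger share of dividing cells and more of these transcripts per cell cannot be told apart. The spindle motor genes Kif11 (3.70), Kif2c (3.57) and Kif4 (3.53), the chromosomal passenger gene Cdca8 (3.55), the microtubule-binding gene Nusap1 (3.48) and the mitotic kinase gene Aurka (3.17) had gaps of similar size. Over the tested mitosis genes natural Treg exceeded naive CD4 by a median of 0.99. The vitamin C array exceeded the conventional one by a median of 0.16.

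Genes of the S phase were also higher in the cultured pair, by less. Of 31 tested DNA replication and nucleotide synthesis genes, 20 were cultured higher and 0 ex vivo higher, with a median difference of pair means of 1.80. Mcm10, which helps to start replication forks, had log2 signals of 11.88 and 11.63 in vitamin C and conventional iTreg, against 8.77 in natural Treg and 5.97 in naive CD4, where it was not detected. Its gap was 2.87. Chaf1a, a subunit of the factor that loads histones onto new DNA, had a gap of 2.74. Rrm2, the ribonucleotide reductase subunit that limits the supply of DNA building blocks, had 2.50, and the helicase cofactor gene Cdc45 had 2.30. The cyclin gene Ccne2 was detected on neither ex vivo array and was at least 4.46-fold higher in the cultured pair.

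Regulators of the cycle were counted at about the share of all tested genes (16.7%). Of 12 tested cyclins, CDK inhibitors and RB family genes, 2 were cultured higher, and both encode inhibitors. Cdkn1a, which encodes the inhibitor p21, had 10.55 in vitamin C iTreg and 11.79 in conventional iTreg and was detected on neither ex vivo array, so that it was at least 14.9-fold higher in the cultured pair. It is also among the counted genes that differed within the cultured pair, by -1.25 on the log2 scale for vitamin C minus conventional iTreg. Cdkn2c had a gap of 1.18. Cdkn1a, Gtse1 (2.99), a mitotic regulator of p53, and the death gene Pmaip1 (2.23) were the 3 cultured-higher genes among 13 tested p53 targets, while the death receptor gene Fas was ex vivo higher (-1.09). Over all tested genes 8.43% were cultured higher and 8.28% ex vivo higher. Myc, the growth-promoting transcription factor, had 9.45 and 9.94 in the cultured pair, against 7.91 and 7.70 in the ex vivo pair (gap 1.54). It was the only counted one of 27 tested ribosome biogenesis genes, below the share over all tested genes (16.7%).

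The promoters of the division genes are shown because their lists share known control elements. Windows of 300 bases, from 250 before to 50 after the start of the transcript, were taken from RefSeq (GRCm38.p6) and were found for 6460 of the 7780 tested genes. The cell cycle homology region element TTTGAA, searched on both strands, was present in 18 of 21 cultured-higher mitosis genes with a window (85.7%), against 14.0% of tested genes and 17.9% of all windows. The E2F-type motif TTTNNCGC, on either strand, was present in 7 of 18 cultured-higher replication genes (38.9%), against 10.2% of tested genes and 5.17% of all windows. A match describes the letters of the window and is not a site of binding. The sequences shown are those of the mitosis gene and the replication gene with the largest gap whose window holds the motif, each 5′ to 3′ on the gene's strand with the motif in capitals. Cdk1 lies on the minus strand at chr10:69352863-69353162, with matches that start at positions -71 and -15 from the transcript start, and Uhrf1, which recruits maintenance methylation to new DNA, on the plus strand at chr17:56303087-56303386, with a match at -56.
Cdk1: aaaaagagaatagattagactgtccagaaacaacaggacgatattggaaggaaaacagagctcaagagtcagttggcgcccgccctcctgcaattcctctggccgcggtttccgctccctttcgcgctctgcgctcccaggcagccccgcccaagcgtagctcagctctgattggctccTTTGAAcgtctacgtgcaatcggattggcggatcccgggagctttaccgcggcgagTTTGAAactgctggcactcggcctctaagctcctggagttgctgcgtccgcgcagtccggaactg
Uhrf1: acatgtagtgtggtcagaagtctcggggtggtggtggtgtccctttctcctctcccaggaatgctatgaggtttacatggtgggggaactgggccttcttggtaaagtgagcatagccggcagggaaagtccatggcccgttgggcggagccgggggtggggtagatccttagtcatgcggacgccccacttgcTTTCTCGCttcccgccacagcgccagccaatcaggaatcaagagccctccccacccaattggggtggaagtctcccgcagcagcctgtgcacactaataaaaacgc
Uhrf1 had log2 signals of 13.20 and 13.05 in the cultured pair, against 11.01 and 9.21 in the ex vivo pair, and a gap of 2.05.

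Sterol and fatty acid synthesis genes were higher in the cultured pair. Of 26 tested genes, 20 were cultured higher and 0 ex vivo higher, with a median difference of pair means of 2.16. The median of natural Treg minus naive CD4 over the same genes was -0.01. Scd1, the desaturase that makes monounsaturated fatty acids, had 13.44 and 13.39 in vitamin C and conventional iTreg and was detected on neither ex vivo array, so that it was at least 107-fold higher. No other gene had a larger gap in the comparison. Cyp51, the sterol demethylase, had 12.70 and 12.46 in the cultured pair, against 9.28 and 9.19 in the ex vivo pair (gap 3.18, 9.07-fold). Scd2 (2.87), the farnesyl diphosphate synthase gene Fdps (2.77) and the squalene epoxidase gene Sqle (2.75) followed. Idi2, an isopentenyl diphosphate isomerase gene outside the list, was at least 86.7-fold higher; it is a close copy of Idi1, and whether its probe also binds Idi1 transcripts was not tested. Hmgcs1, the synthase at the start of the mevalonate pathway, is shown because its promoter window holds the sterol element TCACNCCAC. Its log2 signals were 14.75 and 14.78 in the cultured pair, against 12.21 and 12.45 in the ex vivo pair (gap 2.30). It was the only one of 14 counted members with a window to hold that motif (7.14%), against 1.32% of tested genes and 1.24% of all windows, both strands searched. The window lies at chr13:119690101-119690400 on the plus strand of GRCm38.p6, with the match, in capitals, at -137.
Hmgcs1: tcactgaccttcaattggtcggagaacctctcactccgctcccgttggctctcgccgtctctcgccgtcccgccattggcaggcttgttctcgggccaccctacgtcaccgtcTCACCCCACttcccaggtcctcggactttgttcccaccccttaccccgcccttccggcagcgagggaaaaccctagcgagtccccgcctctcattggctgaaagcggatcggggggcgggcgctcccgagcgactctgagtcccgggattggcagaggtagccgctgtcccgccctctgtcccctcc

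Many genes of glycolysis and targets of HIF, the factor that responds to low oxygen, were higher in the cultured pair. Of 25 tested, 13 were cultured higher and 1 ex vivo higher, with a median difference of 1.20. Egln3, an oxygen-sensing prolyl hydroxylase that HIF itself induces, had 12.97 and 12.41 in vitamin C and conventional iTreg, against 8.73 in natural Treg and 6.16 in naive CD4, where it was not detected (gap 3.68, 12.8-fold). The aldolase gene Aldoc had 11.52 and 11.74 in the cultured pair, against 8.01 and 6.20 in the ex vivo pair (gap 3.52). Natural Treg stood above naive CD4 in both genes, whereas the phosphofructokinase gene Pfkp was level within the ex vivo pair. Pfkp had 13.71 and 13.57 in the cultured pair, against 11.33 and 11.30 in the ex vivo pair (gap 2.24). The triose phosphate isomerase gene Tpi1 had a gap of 2.18. Vegfa, the angiogenic growth factor gene, was detected on neither ex vivo array and was at least 7.52-fold higher. The collagen prolyl hydroxylase gene P4ha1 went the other way, with 7.78 and 7.90 in the cultured pair, against 9.36 and 8.93 in the ex vivo pair (gap -1.03).

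Of the amino acid transport and ATF4 response genes, 10 of 21 tested were cultured higher and 0 ex vivo higher, with a median difference of 1.34. ATF4 is the transcription factor that restores amino acid supply under stress. Asns, the asparagine synthetase gene, had 12.25 in vitamin C iTreg and 13.17 in conventional iTreg, against 8.19 in natural Treg and 6.25 in naive CD4, where it was not detected (gap 4.06, 16.7-fold). Another Asns probe that passed the detection rule had a gap of 3.88, but a further such probe had only 0.11. The glycine transporter gene Slc6a9 (at least 9.59-fold), the glutathione-degrading enzyme gene Chac1 (at least 6.40-fold) and the neutral amino acid transporter gene Slc1a4 (at least 5.39-fold) were detected on neither ex vivo array. The transcription factor gene Atf5 had a gap of 2.35. Over the list the median of vitamin C minus conventional iTreg was -0.29 on the log2 scale, and the counted members Asns and Slc6a9 differed by -0.92 and -0.99. Of 16 tested aminoacyl-tRNA synthetase genes, only Mars1 was counted (1.12), although 13 others were cultured higher by less than 2-fold. Over all tested genes 16.7% were counted. The ATF4 element TGATGNAA, searched on both strands, was present in 3 of 9 counted members with a window (33.3%), against 2.91% of tested genes and 3.97% of all windows. Asns lies on the minus strand, with its window at chr6:7693160-7693459 of GRCm38.p6 and the match, in capitals, at -23.
Asns: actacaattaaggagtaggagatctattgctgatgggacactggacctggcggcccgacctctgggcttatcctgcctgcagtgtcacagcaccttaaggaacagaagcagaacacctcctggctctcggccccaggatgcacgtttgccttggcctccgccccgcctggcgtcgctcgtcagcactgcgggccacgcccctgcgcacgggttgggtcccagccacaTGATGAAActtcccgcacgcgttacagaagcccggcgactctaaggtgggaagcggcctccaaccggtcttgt

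Metallothionein 1 showed the largest gap among all the listed genes detected on at least 3 arrays. Mt1, which binds zinc and copper, had 15.16 and 15.00 in vitamin C and conventional iTreg, against 9.40 in natural Treg and 5.20 in naive CD4, where it was not detected. The gap was 5.59, or 48.3-fold. Its neighbour Mt2 was not counted, with 7.25 and 7.21 in the cultured pair, against 6.16 and 5.68 in the ex vivo pair, where neither array detected it. Of the 11 tested genes for metallothioneins, zinc and iron handling, Slc39a8, a zinc importer gene (at least 7.33-fold), and Tfrc, the transferrin receptor gene (gap 2.14), were also cultured higher. With Mt1 these make 3 of the 11, beside 8.43% of all tested genes. The metal response element core TGCNCNC is short, and it was present in all 3 counted members (100%), in 64.0% of tested genes and in 51.0% of all windows on either strand. The Mt1 window, on the plus strand at chr8:94178839-94179138 of GRCm38.p6, holds it 3 times, at -23, +3 and +21, in capitals.
Mt1: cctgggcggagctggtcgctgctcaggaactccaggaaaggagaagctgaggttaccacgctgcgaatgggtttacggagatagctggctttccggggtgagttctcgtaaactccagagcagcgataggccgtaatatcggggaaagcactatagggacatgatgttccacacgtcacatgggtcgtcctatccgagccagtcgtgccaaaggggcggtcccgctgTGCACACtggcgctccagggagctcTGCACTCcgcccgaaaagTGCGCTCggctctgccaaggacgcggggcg

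The leading cultured-higher genes outside the lists came from varied classes. Among genes detected on all 4 arrays, Denn2b, which encodes an activator of Rab GTPases, had the largest gap. It had 12.69 and 12.47 in vitamin C and conventional iTreg, against 6.45 in natural Treg and 6.84 in naive CD4 (gap 5.64, 49.7-fold). Slco4a1, an organic anion transporter gene, had 12.18 and 12.47 in the cultured pair, against 7.20 and 7.46 in the ex vivo pair (gap 4.72). Both genes differed by less than 0.40 within each pair. Kctd14 (4.16), the actin linker vinculin gene Vcl (3.94), the water and glycerol channel gene Aqp3 (3.52), the transcription factor gene Cebpb (3.33), the bacterial lipoprotein receptor gene Tlr2 (3.27) and Sap30 (3.20), a subunit gene of the Sin3 deacetylase complex, followed. Of the genes detected on neither ex vivo array, the stress-induced gene Nupr1 was at least 78.6-fold higher, the microtubule-binding gene Nav1 at least 51.2-fold, Speer3 at least 49.5-fold and Nrep at least 40.7-fold. Gja1, a connexin gene named after its values were seen, had the largest gap that was no bound, with 13.48 and 13.18 in the cultured pair, against 6.87 in natural Treg and 5.44 in naive CD4, where it was not detected (gap 6.31). Speer3 belongs to a family of near-identical copies, and which of them its probe reports is uncertain.

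**Figure D3:**
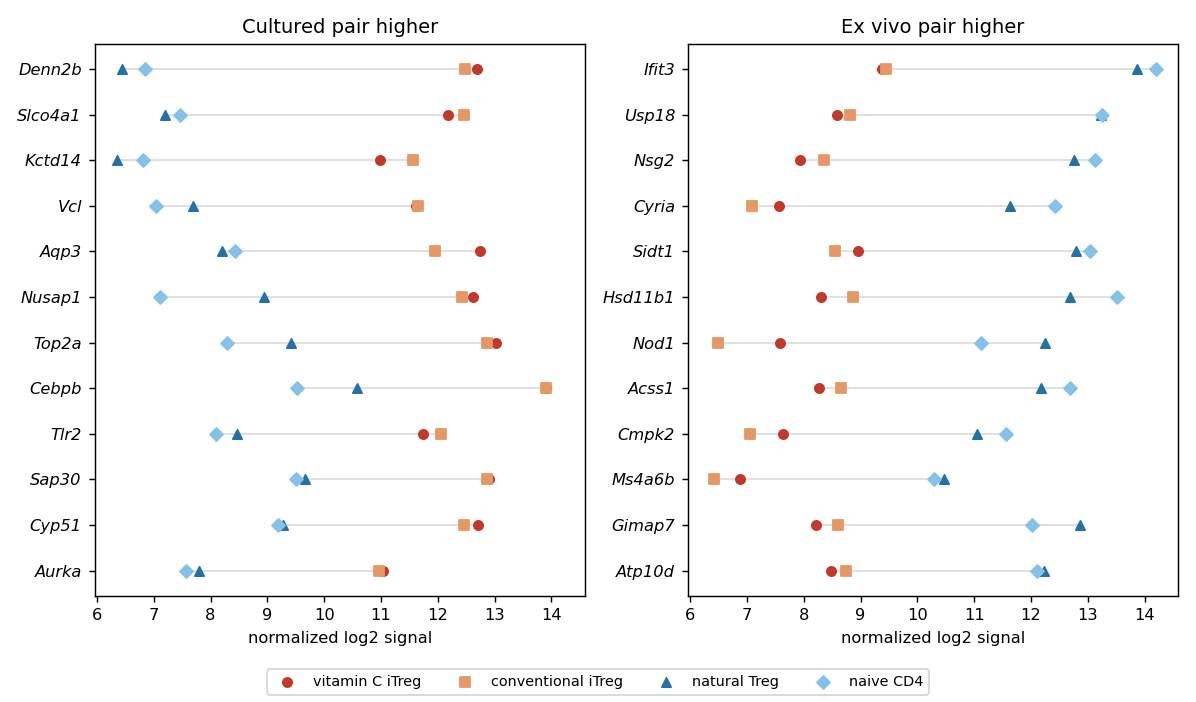
Normalized log2 signal (x axis) of the 12 genes with the largest gaps in each direction among genes detected on all 4 arrays, with a symbol for each array. In each row the red and orange symbols of the cultured pair stand apart from the blue symbols of the ex vivo pair, from Denn2b (gap 5.64) to Aurka (3.17) on the left and from Ifit3 (-4.43) to Atp10d (-3.36) on the right.

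Interferon response genes formed the largest group on the ex vivo side. These genes are induced through the receptors for type I interferon and encode proteins that block virus replication. Of 33 tested, 23 were ex vivo higher and 0 cultured higher, with a median difference of pair means of -1.83. Ifit3, which binds viral RNA complexes, had 9.37 and 9.44 in vitamin C and conventional iTreg, against 13.87 in natural Treg and 14.20 in naive CD4 (gap -4.43, 21.5-fold). Usp18, which removes ISG15 and dampens interferon signalling, had 8.58 and 8.82 in the cultured pair, against 13.23 and 13.25 in the ex vivo pair (gap -4.41). Natural Treg and naive CD4 were both high in these genes, and over the list natural Treg minus naive CD4 had a median of -0.03. Rsad2, which encodes the antiviral protein viperin, was detected on neither cultured array and had 11.22 in natural Treg and 11.64 in naive CD4, so that it was at least 32.6-fold lower in the cultured pair. The RNA-activated synthetase genes Oas2 and Oasl1 were at least 21.7-fold and at least 11.4-fold lower there. Cmpk2, a mitochondrial nucleotide kinase gene that interferon induces, had a gap of -3.41, and Ifi214, a member of a multicopy interferon-inducible family, was at least 24.5-fold lower. The interferon element GAAANNGAA, searched on both strands, was present in 7 of 14 ex vivo-higher members with a window (50%), against 8.72% of tested genes and 8.56% of all windows. The Rsad2 window lies on the minus strand at chr12:26456403-26456702 of GRCm38.p6, and its match, in capitals as the reverse complement, is at -119.
Rsad2: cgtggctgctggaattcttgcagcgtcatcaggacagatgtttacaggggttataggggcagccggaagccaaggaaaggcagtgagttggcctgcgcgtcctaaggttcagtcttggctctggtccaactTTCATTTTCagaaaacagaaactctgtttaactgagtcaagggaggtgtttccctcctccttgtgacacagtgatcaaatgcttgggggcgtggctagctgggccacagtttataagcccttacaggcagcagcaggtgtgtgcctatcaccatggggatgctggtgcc
Of 15 tested MHC class I and immunoproteasome genes, which interferon can also induce, 2 were ex vivo higher, H2-Q7 (-1.38) and H2-K1 (-1.22). None was cultured higher. The ex vivo-higher share over all tested genes was 8.28%. Class I genes are near copies of each other, so their probes may share transcripts.

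GIMAP GTPase genes and a part of the naive and quiescence genes were higher in the ex vivo pair. Of 8 tested GIMAP GTPase genes, which support lymphocyte survival, 5 were ex vivo higher and the other 3 were ex vivo higher by less than 2-fold. Gimap7 had 8.22 and 8.61 in vitamin C and conventional iTreg, against 12.87 in natural Treg and 12.01 in naive CD4 (gap -3.40, 10.5-fold). Gimap5 (-1.97), Gimap3 (-1.83), Gimap6 (-1.75) and Gimap8 (-1.73) had smaller gaps. Of 27 tested naive and quiescence genes, 10 were ex vivo higher and 0 cultured higher, 11 more were ex vivo higher by less than 2-fold, and the median difference was -0.63. Klf3, a transcription factor gene, had 8.38 and 9.13 in the cultured pair, against 11.71 and 11.69 in the ex vivo pair (gap -2.56). Il7r, the receptor chain for the survival cytokine IL-7, had 9.05 in vitamin C iTreg and 10.12 in conventional iTreg, against 12.49 in natural Treg and 13.84 in naive CD4 (gap -2.38). The order for Il7r was naive CD4, natural Treg, conventional iTreg and vitamin C iTreg, high to low. Ripor2 was at least 4.44-fold lower in the cultured pair and Dapl1 at least 3.48-fold, and the chromatin organizer gene Satb1 had a gap of -1.92. The lymph node homing receptor gene Ccr7 was not counted, with 11.56 and 11.73 in the cultured pair, against 10.93 and 11.64 in the ex vivo pair.

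Some receptors for homing and signalling were counted. Of 19 tested homing and adhesion receptor genes, 4 were ex vivo higher and 1, Ccr8, cultured higher. The shares over all tested genes were 8.28% and 8.43%, in that order. Ly6c1, a surface protein with a near-identical copy, Ly6c2, whose transcripts its probe may share, had 6.36 in vitamin C iTreg and 5.56 in conventional iTreg, where it was not detected, against 11.73 in natural Treg and 12.61 in naive CD4 (gap -5.36, 41.1-fold). The oxysterol receptor gene Gpr183 had 5.36 in vitamin C iTreg, where it was not detected, and 7.78 in conventional iTreg, against 10.94 and 11.57 in the ex vivo pair (gap -3.16). The gut-homing integrin gene Itgb7 had a gap of -1.98 and the sphingosine phosphate receptor gene S1pr4 of -1.25. Of 20 tested genes of the T cell receptor complex and its proximal signalling, 2 were ex vivo higher, near the share over all tested genes (8.28%): the CD3 zeta chain gene Cd247 (8.75 and 8.82 in the cultured pair, against 11.02 and 11.76 in the ex vivo pair, gap -2.20) and Cd96 (-2.01), and 15 others were lower in the cultured pair by less than 2-fold.

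Immediate early genes did not go one way. Of 25 tested, 2 were cultured higher, near the share over all tested genes (8.43%): the AP-1 gene Jun (2.39) and Ier3 (at least 6.16-fold). A further 4 were ex vivo higher, beside 8.28% of all tested genes, led by the mRNA decay factor gene Zfp36 (-1.55), Ier2 (-1.37) and the phosphatase gene Dusp2 (-1.34). The median difference of this list was 0.17, and it ranged from -0.0036 to 0.32 over the alternatives tried. Cytokine and growth factor pathways were mixed as well, with few counted members in each list, to be read beside the same shares over all tested genes. Among 15 tested TGF-beta response genes, Bhlhe40 (2.39), Id1 (at least 4.28-fold) and Tgfb1 (1.34) were cultured higher, and Id3 (-2.22) and the co-receptor gene Tgfbr3 (-1.06) ex vivo higher. Their median was -0.40, and it ranged from -0.96 to 0.14 over the alternatives. Among 15 tested SOCS, STAT and IL-2 signalling genes, Socs2 and Il2ra were cultured higher, and Socs3 (-1.58) and Jak1 (-1.46) ex vivo higher. Among 15 tested effector genes, the chemokine genes Ccl4 (4.03) and Ccl3 (at least 7.44-fold) and the lymphotoxin gene Lta (1.20) were cultured higher, while the pore-forming protein gene Prf1 (-1.82) and Tnfsf8 (-1.53), the ligand of CD30, were ex vivo higher.

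The leading ex vivo-higher genes outside the lists came from varied classes. Nsg2, a vesicle trafficking gene, had 7.93 and 8.35 in vitamin C and conventional iTreg, against 12.76 in natural Treg and 13.12 in naive CD4 (gap -4.41, 21.2-fold). Cyria, a regulator of Rac1, had 7.56 and 7.09 in the cultured pair, against 11.63 and 12.43 in the ex vivo pair (gap -4.07). Hsd11b1, the enzyme that regenerates active glucocorticoid, had 8.31 and 8.87 in the cultured pair, against 12.69 and 13.51 in the ex vivo pair (gap -3.82). In these 3 genes naive CD4 stood somewhat above natural Treg. The peptidoglycan sensor gene Nod1 had 7.58 and 6.48 in the cultured pair, against 12.25 and 11.12 in the ex vivo pair (gap -3.55), with natural Treg above naive CD4 and vitamin C above conventional iTreg. Sidt1 (-3.85), the mitochondrial acetyl-CoA synthetase gene Acss1 (-3.52), Ms4a6b (-3.41) and the lipid flippase gene Atp10d (-3.36) completed the 12 largest gaps among genes detected on all 4 arrays. Of genes detected on neither cultured array, the Rab27 effector gene Sytl2 was at least 30.0-fold lower there, the Notch pathway ligase gene Dtx1 at least 26.3-fold and the AMP deaminase gene Ampd1 at least 13.8-fold.

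Most genes of the Treg signature did not divide the arrays into these pairs. Of 22 tested, 7 were cultured higher, 0 were ex vivo higher and the pairs overlapped in 13. The cultured-higher share was still above that over all tested genes (8.43%). Both iTreg arrays were at least 2-fold above naive CD4 in 18 of the 22, but above natural Treg in 8 and below natural Treg in 5. Natural Treg exceeded naive CD4 by a median of 3.43 over the list. Foxp3 had 8.05 and 8.27 in vitamin C and conventional iTreg, against 8.09 in natural Treg and 4.80 in naive CD4, where it was not detected. The GFP+ populations lay close together and apart from naive CD4. The cells had been sorted on GFP, which reports Foxp3, so the sort itself selected for this contrast with naive CD4. The checkpoint receptor gene Ctla4 was likewise lowest in naive CD4, with 14.04 and 13.97 in the cultured pair, against 14.05 and 8.80 in the ex vivo pair. Ikzf2, which encodes Helios, was detected in natural Treg alone, at 10.56, and therefore did not enter the tested set.

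The 7 counted Treg signature genes stand highest in the cultured pair by the rule that counted them. In all 7, natural Treg stood above naive CD4. The chemokine receptor gene Ccr8 had 12.11 and 11.96 in vitamin C and conventional iTreg, against 9.37 in natural Treg and 6.44 in naive CD4 (gap 2.59, 6.02-fold). Socs2, an IL-2-induced inhibitor of cytokine signalling, had 14.68 on both cultured arrays, against 12.65 and 6.06 in the ex vivo pair (gap 2.03). Il2ra, which encodes CD25, had 13.38 and 13.32 in the cultured pair, against 11.77 and 5.23 in the ex vivo pair (gap 1.55), and the iTreg had been sorted on CD25. The actin-capping gene Capg (1.30) and the G protein regulator gene Rgs16 (1.28) also counted, with Tnfrsf9 (1.16) and the ectonucleotidase gene Nt5e (1.04), both outside the naming rule. Cd44, an activation marker on which the naive cells were gated low, missed the limit with 11.87 and 11.77 in the cultured pair, against 10.83 and 8.67 in the ex vivo pair (gap 0.93). The other signature genes include some, named after their values were seen, that stood highest in natural Treg. The integrin gene Itgae had 11.07 and 10.85 in the cultured pair, against 13.46 in natural Treg and 6.69 in naive CD4, and the G protein-coupled receptor gene Gpr83 had 11.90 and 11.94 in the cultured pair, against 14.34 and 11.68 in the ex vivo pair.

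**Figure D4:**
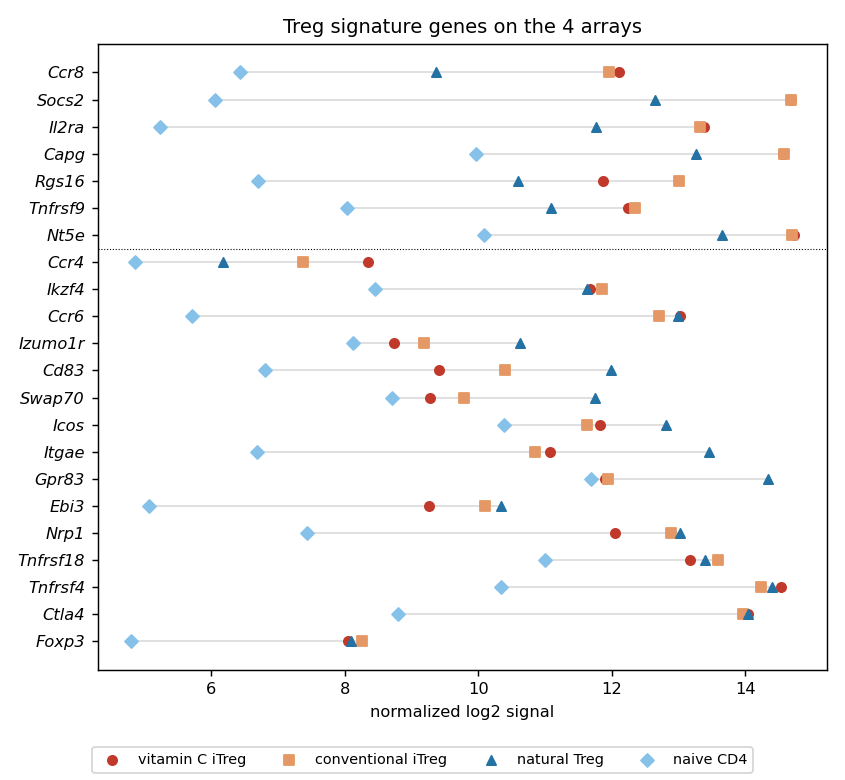
Normalized log2 signal (x axis) of the 22 tested Treg signature genes on each array, ordered by gap, with the 7 counted genes above the dotted line. Naive CD4 lies lowest in every row, while natural Treg lies below both iTreg arrays in the upper rows and above both in most of the lower rows.

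The large complexes of translation, respiration and protein breakdown differed little between the pairs, with a small shift towards the cultured pair in all but the cytosolic ribosomal proteins. Of 55 tested cytosolic ribosomal protein genes 0 were counted, with a median difference of pair means of 0.00, and differences from -0.96 to 1.27. The median was 0.23 for 70 mitochondrial ribosomal protein genes, 0.25 for 71 oxidative phosphorylation subunit genes and 0.33 for 30 constitutive proteasome subunit genes, with no counted member in any. Over all tested genes the median was -0.06. The difference was above 0 in 52, 54 and 29 genes of these 3 lists, in that order. Among 24 tested chaperone and unfolded protein response genes only Xbp1, a transcription factor gene of secretory cells, was counted, beside 16.7% of all tested genes. It had 14.77 and 14.63 in the cultured pair, against 12.63 and 11.57 in the ex vivo pair (difference of pair means 2.60). Smaller sets gave a few counted members, beside 8.43% of all tested genes with the cultured pair higher. The antioxidant and fatty acid oxidation counts were near that share. Prdx4 (1.44) and the thioredoxin gene Txn1 (1.29) were cultured higher among 19 antioxidant and pentose phosphate genes, Grn (1.87), Ctsz (1.75) and Cd63 (1.04) among 17 lysosome genes, and Acadl (1.06) among 14 fatty acid oxidation genes.

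The 2 arrays of a pair agreed more closely in some of the counted genes than in others. Among cultured-higher genes, vitamin C and conventional iTreg lay within 1.5-fold of each other in 86.3%, against 93.7% of all tested genes. In the same genes natural Treg and naive CD4 lay within 1.5-fold in 55.0%, against 80.7% of all tested genes. Natural Treg was at least 2-fold above naive CD4 in 196 of these 656 genes and at least 2-fold below it in 3. All within-pair differences here use values without the detection floor, so they include differences between undetected signals. Of the 656 genes, 167 were detected on neither ex vivo array and 136 on only 1 of them. Among ex vivo-higher genes the shares within 1.5-fold were 91.8% for vitamin C against conventional iTreg and 78.3% for natural Treg against naive CD4, and natural Treg was at least 2-fold higher in 18 and lower in 33 of the 644. Over all 7780 tested genes natural Treg was at least 2-fold above naive CD4 in 567 and below it in 139. The gap exceeded both within-pair differences in 1195 of the 1300 counted genes. The 2-fold rule favours this outcome because it selects genes for a large gap, and no such count was taken over other tested genes.

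**Figure D5:**
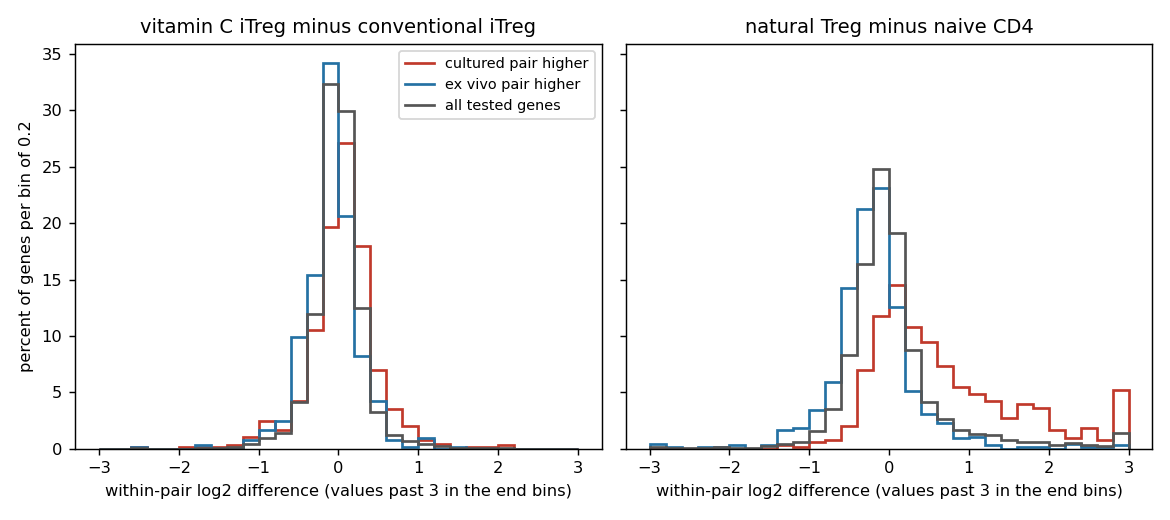
Distribution of the log2 difference within a pair (x axis, bins of 0.2) as a percent of the genes of each class (y axis), for vitamin C minus conventional iTreg on the left and natural Treg minus naive CD4 on the right. On the right the cultured-higher genes extend far to positive values, with a median of 0.45, while the ex vivo-higher genes centre at -0.20 and all tested genes at -0.05.

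Each single ex vivo array, taken alone, gave longer lists. Both iTreg arrays were at least 2-fold above natural Treg in 768 genes and above naive CD4 in 944, and the pair rule kept 656 of each. Both were at least 2-fold below natural Treg in 812 genes and below naive CD4 in 1025, of which it kept 644. Of the genes above naive CD4, 288 were therefore not 2-fold above natural Treg, while 112 of those above natural Treg were not 2-fold above naive CD4. These comparisons share the iTreg arrays.

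Other probes of the same genes gave a readout that the choice of a gene had not used, though from the same RNA and the same array. In 171 cultured-higher genes 246 other probes passed the detection rule. Of these, 154 met the 2-fold rule themselves, 64 went the same way by less, 27 had overlapping pairs and 1, for Mcph1, went the opposite way with a gap of -0.25. In 158 ex vivo-higher genes there were 214 other probes, of which 127 met the rule, 82 went the same way by less, 5 overlapped and 0 went the opposite way. A probe silent on both arrays of the low pair passes the detection rule only through the high pair, which largely sets its direction. The counts therefore cannot measure agreement for such probes, and no share over other probes of all tested genes was taken beside them.

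The promoters of the classes differed in base composition. A ratio of observed to expected CpG of 0.6 or more was found in 68.9% of cultured-higher and 52.5% of ex vivo-higher genes with a window, against 74.2% of all tested genes with one. The median ratio was 0.74 and 0.62 in these classes, against 0.77. The median GC content was 61.0% and 58.7%, against 60.7% over all tested genes, and the median gene length 19.4 kb and 27.1 kb, against 21.1 kb. Whether these properties relate to the position of a probe or to detection was not tested.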

How the data were processed

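Gene expression was measured on Illumina bead arrays, 1 for each of 4 groups, from 550 ng of total RNA amplified and labelled with biotin, per the labels' protocols. The submitters' processing notes name GenomeStudio 2011.1. Per the file headers, the deposited table gives every array's intensity on a linear scale, with its detection p-value, for 25697 probes. The authors' second table held log2 values, which were the quantile-normalized log2 of the deposited intensity to within 5e-07. The sources used here do not state any background subtraction or bead filtering before deposit. No column of per-sample values was left out.

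With limma 3.58.1 (R 4.3.3), neqc corrected the intensities for background, inferring the negative controls from the detection p-value column, added an offset of 16, and quantile-normalized the 4 arrays before taking log2. This offset makes fold changes of dim genes smaller. Later steps used Python 3.11.15, numpy 2.4.6, pandas 2.3.3 and matplotlib 3.10.9. Symbols were updated through RefSeq (GRCm38.p6), which matched 23971 of 23978 named probes and altered 8; 1719 probes are unnamed here. A gene is its probe with the highest mean over the arrays. An undetected array of the low pair was raised to the weakest signal which that array detected, where it lay below it. The number of arrays limits the precision.

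With 1 array per group no test was run, and lists are described by counts and medians. The pairs, the 29 gene lists, the 6 marker lists, the motifs and the naming rule were chosen with earlier results of these data known. The rule named the 12 largest gaps each way among genes detected on all 4 arrays, the 6 largest bounds each way among genes detected on neither array of the low pair, up to 5 counted members of each list, 12 chosen genes, and the genes nearest the threshold, without provisional models; genes of the rule without a named probe here are not reported. Of these genes, 133 were on the array. The steps were tested on simulated data. The 10 alternatives took the authors' log2 values, an offset of 50, median centring, a detection limit of 0.05, detection on all 4 arrays or on at least 1, no filter, no floor, the mean over probes, or the difference of pair means.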

Additional observations from a re-analysis of the deposited data

Results flagged for a closer look

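Probes with no gene name stood outside the counts of genes above. Of 696 such probes that passed the detection rule, 68 met the 2-fold rule with the cultured pair higher and 65 with the ex vivo pair higher, together 19.1%, against 16.7% of named genes. What these probes report was not analysed here.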

How the results depend on the processing

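No gene counted in one direction was counted in the other under any of the 10 alternatives. Requiring detection on all 4 arrays left 353 cultured-higher genes, since it drops genes silent in the low pair, and left 15 mitosis genes, 6 amino acid and ATF4 genes and 4 Treg signature genes as cultured higher. Taking the difference of pair means in place of the gap gave 1020 ex vivo-higher genes, and 15 Treg signature genes as cultured higher. The authors' log2 values gave 548 cultured-higher and 440 ex vivo-higher genes, of which 547 and 439 were also in the main counts, and median centring gave 781 and 484. The interferon list had 17 to 24 ex vivo-higher members, the sterol list 17 to 21 cultured-higher ones and the DNA replication list 14 to 22. The cytosolic ribosomal protein and oxidative phosphorylation lists reached 2 cultured-higher members each, and the mitochondrial ribosomal protein list 2 ex vivo-higher members, under at least 1 alternative. No paired analysis was possible because each group has 1 array. Fold changes of dim genes are compressed by the offset and bounded by the detection floor, and a shift of most genes in the same direction would not be seen after quantile normalization.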

Other observations

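Some counted genes also differed between the iTreg arrays, although both lay on the same side of the ex vivo pair. Among the 656 cultured-higher genes, vitamin C iTreg exceeded conventional iTreg by 2-fold or more in 12 and fell short of it by as much in 13, and among the 644 ex vivo-higher genes these numbers were 7 and 8. Such differences were found in 3.81% of the cultured-higher and 2.33% of the ex vivo-higher genes, against 1.74% of all 7780 tested genes, where they numbered 70 and 65. The genes named here were chosen after their values were seen. The gap junction gene Gja5 had 12.88 in vitamin C iTreg and 10.82 in conventional iTreg, against 5.49 in natural Treg and 5.30 in naive CD4, neither of which detected it. The endocytic adaptor gene Dab2 had 11.31 and 9.69 in the cultured pair, against 4.96 and 4.90 in the ex vivo pair, and the glycine-cleaving enzyme gene Gldc had 11.87 and 10.55, against 5.06 and 4.83 in the ex vivo pair, with no detection in the ex vivo pair for either gene. In the other direction the melanosome trafficking gene Mreg had 8.96 in vitamin C iTreg and 10.70 in conventional iTreg, against 5.03 and 5.09 in the ex vivo pair.

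On the ex vivo side the guanylate-binding protein gene Gbp7 had 8.42 in vitamin C iTreg and 7.30 in conventional iTreg, against 11.09 in natural Treg and 10.44 in naive CD4. Oasl2, an interferon response gene, had 8.92 and 7.76 in the cultured pair, against 11.94 and 12.49 in the ex vivo pair. The signal transducer gene Stat4 went the other way within the cultured pair, with 8.05 in vitamin C iTreg and 9.09 in conventional iTreg, against 12.29 and 12.23 in the ex vivo pair. Each of these differences rests on single arrays.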
